A study of Mus musculus with 10 samples.

Results

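The nuclear genes for subunits of respiratory complexes II to V were compared between the hippocampus of Tg(Dyrk1a) mice and that of wild-type littermates. Members were the genes whose only platform symbol was Sdha to Sdhd or began with Uqcr, with Atp5, or with Cox and a digit of the structural subunits. Each gene was represented by the transcript cluster, a summary of probes along 1 transcript, that had the highest mean over the arrays. The rule used no difference between genotypes and gave 46 of 19938 genes. Of these, 4 belonged to complex II, 8 to complex III, 17 to complex IV and 17 to complex V. Cox7c was not a member, because each of its transcript clusters carried a second symbol.

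The Tg(Dyrk1a) mice carried Dyrk1a, a protein kinase gene of the Down syndrome region, as a bacterial artificial chromosome transgene in addition to their own copies, and the controls were littermates without it. All were males of 16 weeks. The labels give the background of both groups as C57BL/6N, whereas the methods speak of backcrossing towards C57BL/6J. Each array held RNA of the full hippocampus, from both hemispheres, of 1 mouse, with 5 mice per genotype. The sources used here name no cell type to which the transgene is restricted, and the arrays measured RNA, not protein or respiration.

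Oxidative phosphorylation moves electrons along the inner mitochondrial membrane and uses the resulting proton gradient to make ATP. Complex II (succinate dehydrogenase) feeds electrons from succinate to ubiquinone, complex III passes them to cytochrome c, complex IV (cytochrome c oxidase) hands them to oxygen, and complex V is the ATP synthase. Complexes III, IV and V combine subunits encoded in the nucleus with subunits encoded by mitochondrial DNA, and neurons depend on them for most of their ATP. Several subunits of complex IV exist as a form used by most tissues and a second form typical of muscle, lung or testis.

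Nuclear respiratory genes are known targets of NRF1 and of GABP, a factor of the ETS family, so their promoters are shown first. RefSeq promoter windows of GRCm38.p6, each 300 bases long with 250 before and 50 after an annotated start, were matched for 35 of the 46 members, giving 38 windows. The NRF1 motif, searched on both strands as GCGCA and GCGC with any 1 base between them, was in 10 windows (26.3%), against 4.60% of all promoter windows and 6.38% of those of coding genes. The ETS motif, searched as CCGGAAG on both strands, was in 13 windows (34.2%), against 8.86% of all and 11.6% of coding windows. Either motif was in 50% of the windows of members, against 16.7% of coding windows. A window with either motif belonged to 19 members, and 0 of the 4 matched tissue isoforms of complex IV had one. Whether the tissue isoforms differed in this from other coding genes was not tested. The following windows, 1 for each complex plus a pair of isoforms of the same subunit, read 5′ to 3′ on the strand of the gene, with matches to these motifs and to TATAAA in capitals; no capital stretch is shared by 2 motifs.
Sdhd, chr9:50603800-50604099, minus strand: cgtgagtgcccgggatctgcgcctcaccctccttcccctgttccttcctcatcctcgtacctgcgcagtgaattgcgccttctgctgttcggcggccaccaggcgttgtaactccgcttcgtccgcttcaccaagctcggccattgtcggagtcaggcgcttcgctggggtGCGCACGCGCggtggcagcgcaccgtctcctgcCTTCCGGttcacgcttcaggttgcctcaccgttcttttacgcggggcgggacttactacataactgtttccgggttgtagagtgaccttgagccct
Uqcrc1, chr9:108936398-108936697, plus strand: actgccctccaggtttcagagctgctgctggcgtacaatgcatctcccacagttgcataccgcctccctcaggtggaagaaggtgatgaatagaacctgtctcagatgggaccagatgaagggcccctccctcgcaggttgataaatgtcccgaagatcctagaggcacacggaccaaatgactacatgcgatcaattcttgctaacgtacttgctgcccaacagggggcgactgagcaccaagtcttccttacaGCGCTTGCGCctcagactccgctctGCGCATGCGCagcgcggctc
Cox8a, chr19:7217567-7217866, minus strand: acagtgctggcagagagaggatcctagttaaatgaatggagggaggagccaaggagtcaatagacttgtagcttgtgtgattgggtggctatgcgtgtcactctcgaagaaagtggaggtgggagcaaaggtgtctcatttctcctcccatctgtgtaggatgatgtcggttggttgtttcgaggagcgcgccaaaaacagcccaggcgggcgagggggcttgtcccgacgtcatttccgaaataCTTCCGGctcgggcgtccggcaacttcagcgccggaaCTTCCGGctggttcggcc
Cox8b, chr7:140900397-140900696, minus strand: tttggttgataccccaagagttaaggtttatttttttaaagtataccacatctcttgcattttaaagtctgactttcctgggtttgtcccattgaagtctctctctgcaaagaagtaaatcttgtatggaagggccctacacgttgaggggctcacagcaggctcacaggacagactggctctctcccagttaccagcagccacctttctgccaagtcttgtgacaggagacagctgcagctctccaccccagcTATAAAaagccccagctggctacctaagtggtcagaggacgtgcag
Atp5g3, chr2:73911277-73911576, minus strand: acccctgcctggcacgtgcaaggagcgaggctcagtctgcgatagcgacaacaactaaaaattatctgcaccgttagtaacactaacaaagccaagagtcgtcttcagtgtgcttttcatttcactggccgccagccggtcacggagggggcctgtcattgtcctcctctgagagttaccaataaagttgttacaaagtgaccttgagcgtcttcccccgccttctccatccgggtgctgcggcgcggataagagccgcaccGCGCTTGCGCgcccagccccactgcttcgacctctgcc
The window of Sdhd held both motifs, that of Uqcrc1 held 2 NRF1 matches, that of Cox8a 2 ETS matches and that of Atp5g3 1 NRF1 match. The window of Cox8b held neither, had a TATAAA match just after the annotated start, and contained 2 CpG dinucleotides where the median was 19 for windows of members and 13 for windows of coding genes. These are matches of letters and not measured binding. The 19 members with either motif had a median log2 difference of 0.017, with 15 higher in Tg(Dyrk1a), and the 16 matched members without one had a median of 0.022, with 13 higher.

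The values were deposited log2 RMA values, and array medians lay between 6.57 and 6.66. Any 2 arrays correlated at r of 0.994 to 0.998 over all rows. The main transcript cluster of Dyrk1a rose in the Tg(Dyrk1a) mice, from 11.18 ± 0.06 to 11.65 ± 0.02 (SD, n = 5 each), a 1.38-fold difference (limma adjusted p = 0.000138), and every array of that group lay above every wild-type array. A second, dimmer transcript cluster of the gene was 1.11-fold higher, also with groups that did not overlap, and did not pass the test (limma adjusted p = 0.947). The defining markers of hippocampal neurons were present, with Camk2a at 13.22 in both groups and the dentate gene Prox1 at 10.03 in Tg(Dyrk1a) and 9.91 in wild type. Markers of neighbouring tissue varied between arrays and, in part, with genotype. Meningeal markers had the higher mean in Tg(Dyrk1a) for 17 of 18 genes (median log2 difference 0.22; mean scores -0.12 to 0.28 in Tg(Dyrk1a) and -0.23 to 0.07 in wild type), vascular markers for 10 of 12, choroid plexus markers for 13 of 16 and thalamus or habenula markers for 2 of 14. In whole tissue, fewer cells of a type and less RNA per cell cannot be told apart.

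None of the 46 subunit genes differed between genotypes by the limma test. The count past an adjusted p of 0.05 was 0, where 0.00854% of the 23410 annotated transcript clusters passed. At an unadjusted p under 0.05 it was also 0, against 4.93% of all transcript clusters. No member had groups that did not overlap, against 0.807%, and no member reached the outer 0.025 of FCROS, the rank method of the study, against 4.83%. The smallest limma p among members was 0.0925, for Cox7b2, with an adjusted p of 0.947.

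The differences were small and mostly of one sign. A higher mean in Tg(Dyrk1a) was found for 34 of 46 members, where 50.9% of all transcript clusters had one. The median log2 difference was 0.018, against 0.001 over all transcript clusters, and the members ranged from -0.18 (Cox8b) to 0.07 (Sdhd). The whole 95% limma interval lay within 1.1-fold of wild type in either direction for 30 of 46 members (65.2%), against 56.0% of all transcript clusters. Without the 7 tissue isoforms of complex IV, the other 39 members had fold intervals that reached no lower than 0.901 and no higher than 1.14. The median standard error of a member, 0.042, was close to the 0.043 of all transcript clusters.

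**Figure D1:**
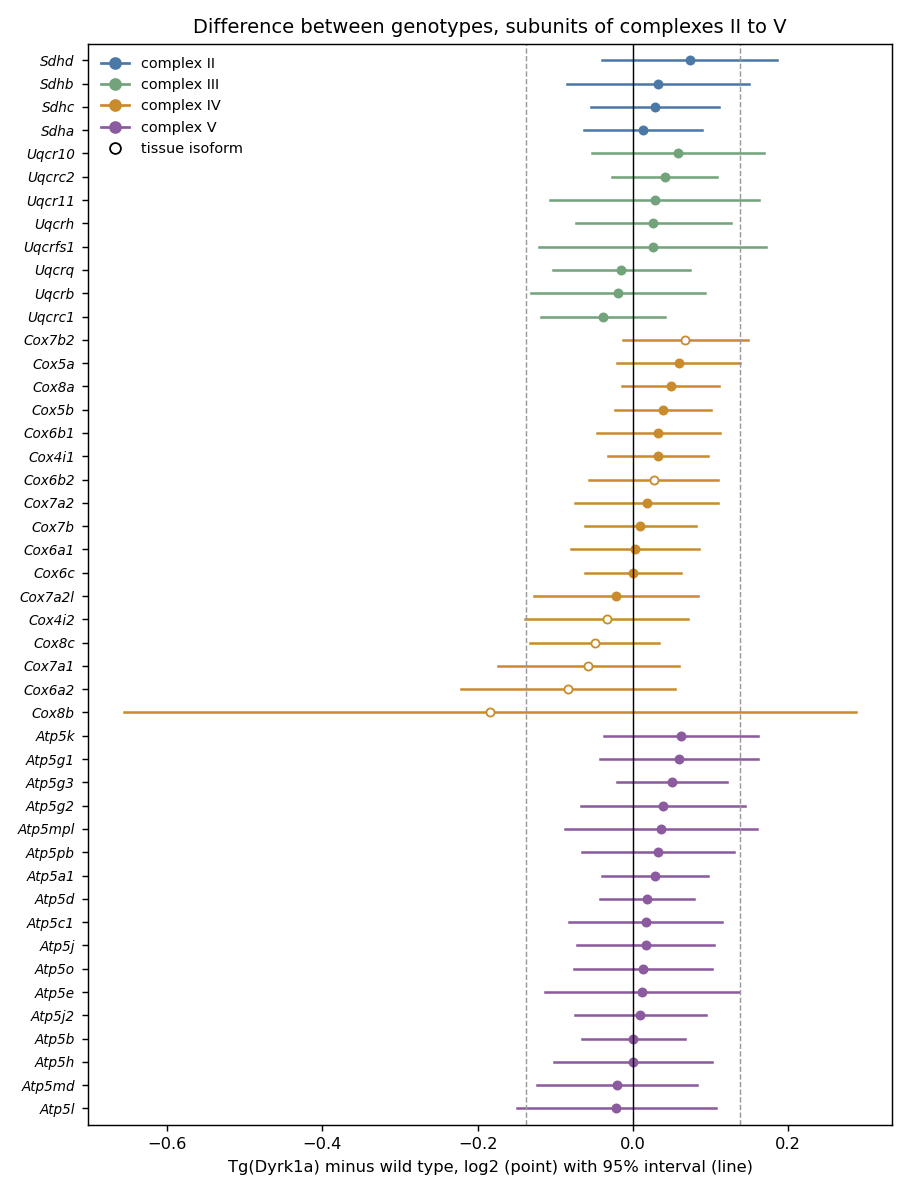
Difference between Tg(Dyrk1a) and wild type for each of the 46 subunit genes, on the log2 scale, with points for the limma estimate, lines for its 95% interval (n = 5 per genotype), colours for the complexes, open points for tissue isoforms and dashed lines at 1.1-fold in either direction. Every interval crosses 0, most estimates lie to the right of it, and the interval of Cox8b, -0.66 to 0.29, is the widest.

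Complex II had the higher mean in Tg(Dyrk1a) for all 4 subunits, with a median log2 difference of 0.030, and no subunit passed the test. Quantile normalization left 3 of them higher, and the marker scores as covariates left 1, with a median of -0.009. The median was 0.014 without Tg(Dyrk1a) replicate 1, 0.015 without wild-type replicate 3 and 0.053 without Tg(Dyrk1a) replicate 4. Sdha, the flavoprotein that oxidises succinate, differed by 0.01 ± 0.04 (limma SE), and Sdhb, the iron-sulphur subunit, by 0.03 ± 0.05. The membrane anchors Sdhc and Sdhd differed by 0.03 ± 0.04 and 0.07 ± 0.05. Sdhd, the highest estimate of the 46, was measured in Tg(Dyrk1a) replicates 1 to 5 at log2 values of 9.64, 9.59, 9.40, 9.41 and 9.53, and in wild-type replicates 1 to 5 at 9.35, 9.50, 9.52, 9.43 and 9.40. Tg(Dyrk1a) replicates 1 and 2 were the high arrays and the other 3 lay inside the wild-type range or just above it, so the groups overlapped (exact two-sided permutation p = 0.230; limma adjusted p = 0.950). Its interval ran from 0.973-fold to 1.14-fold, and its difference was 0.041 without Tg(Dyrk1a) replicate 1, 0.101 without replicate 3 and 0.14 when the fit held the marker scores.

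Complex III showed both signs. Its median log2 difference was 0.026, with 5 of 8 subunits higher in Tg(Dyrk1a), and it lay between -0.002 and 0.014 without any one of Tg(Dyrk1a) replicates 1, 3 and 5 and wild-type replicates 2 and 3. The core proteins, which face the matrix, went apart: Uqcrc2 differed by 0.04 ± 0.03 and Uqcrc1 by -0.04 ± 0.04. Uqcrc2 stood at 11.78, 11.75, 11.69, 11.66 and 11.70 in Tg(Dyrk1a) and at 11.66, 11.67, 11.70, 11.69 and 11.66 in wild type, where Tg(Dyrk1a) replicates 1 and 2 were again the high arrays, replicate 5 lay just above the wild-type range and the others lay inside or below it. Uqcrc1 stood at 11.16, 11.09, 11.01, 11.13 and 11.05 in Tg(Dyrk1a) and at 11.18, 11.07, 11.10, 11.14 and 11.15 in wild type, with the groups interleaved. The limma adjusted p was 0.952 for Uqcrc2 and 0.957 for Uqcrc1. Uqcr10, a small supernumerary subunit, had the highest estimate of the complex at 0.06 ± 0.05, and Uqcrfs1, the Rieske iron-sulphur protein that takes electrons from ubiquinol, had 0.03 ± 0.07. For Uqcrfs1, Tg(Dyrk1a) replicate 4 stood alone at 8.33 while the other 4 arrays of its group lay at 8.64 to 8.71.

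In complex IV the median of the forms used by most tissues lay above 0 and that of the tissue isoforms below it. The subgroups also differed in signal, with mean log2 levels of 4.79 to 7.61 for the tissue isoforms and 10.07 to 13.02 for the common and single forms. Whether signal level had a part in the contrast was not tested. The 9 subunits with a single form or in their common form all had the higher mean in Tg(Dyrk1a), with a median log2 difference of 0.032 and a range of 0.0002 (Cox6c) to 0.06 (Cox5a). This count depends on the symbol rule and the choice of cluster. The transcript clusters that name Cox7c, which was not a member, differed by -0.05, -0.04 and -0.03. A second transcript cluster differed by -0.02 for Cox6c, -0.002 for Cox7b and 0.03 for Cox5b. The 7 tissue isoforms had the higher mean in 2 cases, with a median of -0.05, and without Cox8b 6 of them had a median of -0.04. Leaving out Tg(Dyrk1a) replicate 5 moved the median of the 7 to -0.022 and leaving out wild-type replicate 1 moved it to -0.031, and without Cox8b these medians were -0.021 and -0.012. The median of the common and single forms was 0.019 without Tg(Dyrk1a) replicate 1. Quantile normalization left 8 of the 9 common or single forms higher (Cox6a1 changed sign), leaving out Tg(Dyrk1a) replicate 5 or wild-type replicate 1 left 6, and the marker scores as covariates left 4 of 9, with a median of -0.004, and 3 of 7 tissue isoforms, with a median of -0.003. None of the 16 passed the test, and the difference between the subgroups was not tested. Cox7a2l, known for joining complex IV to complex III in supercomplexes, differed by -0.02 ± 0.05, and its second transcript cluster by 0.02. Whether it has this role in the strain of these mice was not tested.

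Cox8a, the common form of the smallest nuclear subunit, had the most separated groups of complex IV by the exact test. Its log2 values were 12.44, 12.38, 12.41, 12.40 and 12.39 in Tg(Dyrk1a) and 12.37, 12.36, 12.31, 12.40 and 12.35 in wild type. All 5 Tg(Dyrk1a) arrays lay above the wild-type mean, and wild-type replicate 4 lay among them, so the groups overlapped. The difference was 0.05 ± 0.03, or 0.99-fold to 1.08-fold, with an unadjusted exact permutation p of 0.0238 and a limma adjusted p of 0.947. An unadjusted exact p under 0.05 was found for 2 of the 46 members, the other being Atp5g3, and for 5.05% of all transcript clusters.

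Cox5a and Cox5b, the subunits around the matrix side of the catalytic core, differed by 0.06 ± 0.04 and 0.04 ± 0.03. Cox5b, named here because all 5 of its Tg(Dyrk1a) arrays lay above the wild-type mean, which was seen in its values, had a limma adjusted p of 0.952. Cox4i1, the regulatory subunit in its common form, differed by 0.03 ± 0.03, while Cox4i2, its lung form, differed by -0.03 ± 0.05. Cox6b1, at 0.03 ± 0.04, had 1 low wild-type array, replicate 3 at 11.25, with the other wild-type arrays at 11.39 to 11.42; without that array its difference was 0.002.

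The remaining common forms differed by less than their errors, Cox6a1 by 0.003 ± 0.04, Cox7a2 by 0.02 ± 0.04 and Cox7b by 0.009 ± 0.03. Among their tissue counterparts, the heart and muscle forms Cox6a2 and Cox7a1 differed by -0.08 ± 0.06 and -0.06 ± 0.05. The testis forms were split, with Cox6b2 at 0.03 ± 0.04, Cox7b2 at 0.07 ± 0.04 and Cox8c at -0.05 ± 0.04. Cox7b2 had the smallest limma p of all members and was measured at 4.82, 4.79, 4.83, 4.87 and 4.80 in Tg(Dyrk1a) and at 4.79, 4.74, 4.70, 4.86 and 4.69 in wild type. All Tg(Dyrk1a) arrays lay above the wild-type mean of 4.75, and wild-type replicate 4 was the second-highest array of all. Array values have no true 0, and whether so low a value was signal or background was not tested.

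Cox8b, the heart and muscle form of the subunit that Cox8a provides elsewhere, varied far more than any other member, spanning 1.47 on the log2 scale where no other member spanned more than 0.378. Its log2 values were 6.25, 6.43, 5.91, 6.56 and 6.05 in Tg(Dyrk1a) and 6.08, 6.18, 6.16, 6.33 and 7.38 in wild type. Wild-type replicate 5 stood far above the rest of its group, and the other 4 wild-type arrays lay inside the range of Tg(Dyrk1a). The difference was -0.18 ± 0.22, from 0.635-fold to 1.22-fold, with an exact permutation p of 0.643 and a limma adjusted p of 0.969. Without wild-type replicate 5 it was 0.05.

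The highest Cox8b values were on arrays with choroid plexus or thalamus signal. Whether neighbouring tissue was their source was not tested. The choroid plexus score, the mean over 16 markers of the log2 value centred on each marker, was 1.07 in Tg(Dyrk1a) replicate 2, 0.77 in Tg(Dyrk1a) replicate 4 and 1.05 in wild-type replicate 5, and these 3 arrays held the 3 highest Cox8b values. In the other 7 arrays the score was at most 0.002, in wild-type replicate 4. Cox8b was at 6.33 in that array, against 6.43 in Tg(Dyrk1a) replicate 2 and 7.38 in wild-type replicate 5. Ttr, which encodes transthyretin, was at 13.19, 13.02 and 13.24 in those 3 arrays. Wild-type replicate 5 alone had a high score for 14 thalamus and habenula markers, 0.46, where the other arrays lay between -0.12 and 0.08. Among all 35556 rows, Cox8b had the largest excess of wild-type replicate 5 over the highest of the other 9 arrays, 0.81. Next came the thalamus markers Ramp3 at 0.70, Tcf7l2 at 0.68 and Prkcd at 0.63, and then the choroid plexus marker Tmem72 at 0.58. This ranking was made after the value of Cox8b had been seen. Slc17a6, Tac2, Gbx2 and Ptpn3, also among the 14 thalamus and habenula markers, were highest on another array. With scores for thalamus, meninges and choroid plexus added to the fit as covariates, the Cox8b difference was 0.06. Cox8a did not follow the score, with values of 12.38, 12.40 and 12.35 in the same 3 arrays.

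**Figure D2:**
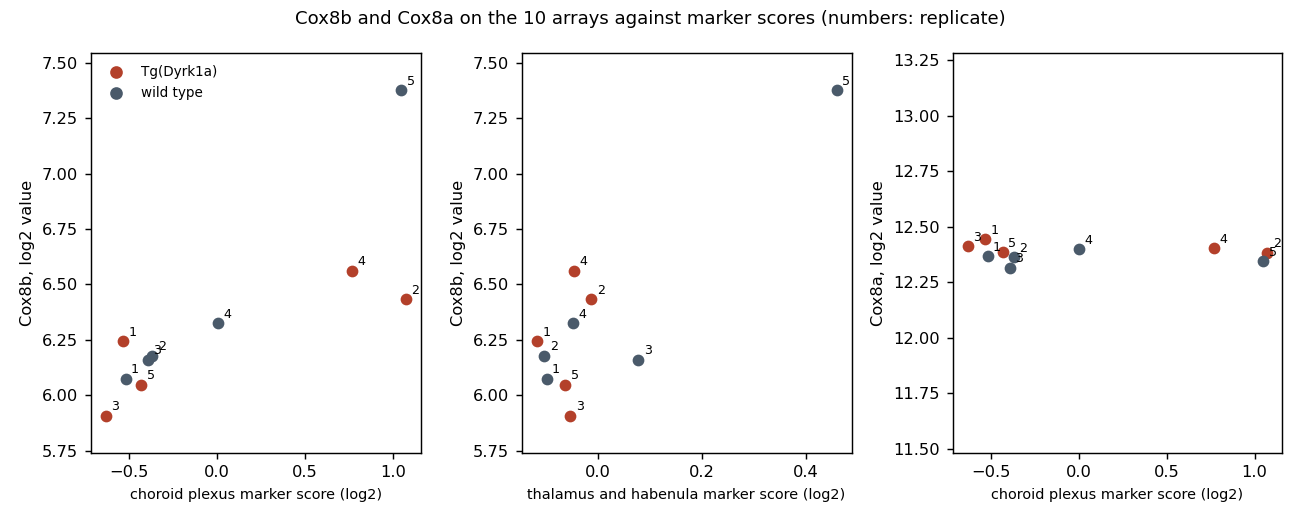
Log2 values of Cox8b (left and middle) and Cox8a (right, on an axis of equal span) on the 10 arrays against the marker scores of choroid plexus and of thalamus and habenula; each point is 1 mouse, labelled by replicate. The 3 arrays whose choroid plexus score exceeds 0.5 hold the 3 highest values of Cox8b, and wild-type replicate 5 at 7.38 is also the array with a thalamus score of 0.46.

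Complex V had the higher mean in Tg(Dyrk1a) for 14 of 17 subunits, with a median log2 difference of 0.017, and no subunit passed the test. The median was 0.006 without Tg(Dyrk1a) replicate 1, 0.030 without wild-type replicate 4 and 0.035 without Tg(Dyrk1a) replicate 4 or wild-type replicate 2. The catalytic head subunits Atp5a1 and Atp5b differed by 0.03 ± 0.03 and 0.0003 ± 0.03. The rotor stalk subunits Atp5c1, Atp5d and Atp5e lay between 0.01 and 0.02. The 4 subunits of the peripheral stalk, which holds the head still, lay between -5.87e-06 (Atp5h) and 0.03 (Atp5pb). The small membrane subunits gave both the highest and the lowest estimate of the complex, Atp5k at 0.06 ± 0.05 and Atp5l at -0.02 ± 0.06.

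The c ring, the proton-driven rotor, is made of 1 protein encoded by Atp5g1, Atp5g2 and Atp5g3, and its genes had the highest median of the complex V groups, 0.050 (0.036 after quantile normalization, 0.029 without Tg(Dyrk1a) replicate 1 and 0.0997 when the fit held the marker scores). Without the 3 arrays whose choroid plexus score exceeded 0.5, 2 of the 3 genes were higher, with a median of 0.054. Atp5g1 differed by 0.06 ± 0.05 and Atp5g2 by 0.04 ± 0.05. Atp5g3 was measured at 11.51, 11.41, 11.38, 11.39 and 11.38 in Tg(Dyrk1a) and at 11.34, 11.38, 11.38, 11.37 and 11.34 in wild type. Tg(Dyrk1a) replicate 1 stood apart from the others, while the rest of its group lay between 11.38 and 11.41. Of these, replicates 2 and 4 lay just above the wild-type range and replicates 3 and 5 lay inside it, near its top. The difference was 0.05 ± 0.03, or 0.986-fold to 1.09-fold, with an unadjusted exact permutation p of 0.0317 and a limma adjusted p of 0.947. Without Tg(Dyrk1a) replicate 1 it was 0.026.

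Atp5j and Atp5o, which encode the F6 and OSCP subunits of the peripheral stalk, lie on mouse chromosome 16 with Dyrk1a and have human homologues on the chromosome that is trisomic in Down syndrome. They are separate from the Dyrk1a gene, which spans 94569947 to 94695519 on that chromosome (GRCm38.p6). Atp5j, at 84827871 to 84835857, was measured at 12.05, 11.95, 11.93, 11.84 and 11.95 in Tg(Dyrk1a) and at 11.90, 12.01, 11.93, 11.94 and 11.86 in wild type. Atp5o, at 91925223 to 91931630, was measured at 10.39, 10.28, 10.23, 10.22 and 10.27 in Tg(Dyrk1a) and at 10.27, 10.29, 10.17, 10.34 and 10.27 in wild type. Apart from Tg(Dyrk1a) replicate 1, the highest array for both genes, the groups were interleaved. The differences were 0.02 ± 0.04, from 0.951-fold to 1.07-fold, and 0.01 ± 0.04, from 0.948-fold to 1.07-fold. Both intervals lay below that of the main Dyrk1a transcript cluster, 1.315-fold to 1.456-fold. They also lay below the 1.11-fold estimate of the second, but overlapped its interval of 1.037-fold to 1.195-fold. Atp5j has more than 1 annotated start. The closest head-to-head starts of Atp5j and Gabpa, with transcripts that do not overlap, lie 148 bases apart. Gabpa is annotated from 84834891, so the spans of the genes overlap. Gabpa, which encodes the DNA-binding subunit of GABP, is transcribed the other way and differed by 0.02.

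Many subunits were high or low on the same arrays. Tg(Dyrk1a) replicate 1 was the highest of the 10 arrays for 19 of 46 members, where 15.2% of all transcript clusters had their highest value on it. It was highest for 2 members of complex II, 4 of complex III, 6 of complex IV and 7 of complex V. The lowest array was wild-type replicate 3 for 13 members, wild-type replicate 1 for 9, Tg(Dyrk1a) replicate 4 for 8 and wild-type replicate 5 for 7. Among all transcript clusters, wild-type replicate 3 was the lowest array for 16.6% and wild-type replicate 1 for 9.21%. The shares were 11.9% for Tg(Dyrk1a) replicate 4 and 9.82% for wild-type replicate 5. The highest array was one of Tg(Dyrk1a) for 35 members (55.1% of all transcript clusters), and the lowest was one for 16 (51.4% of all).

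**Figure D3:**
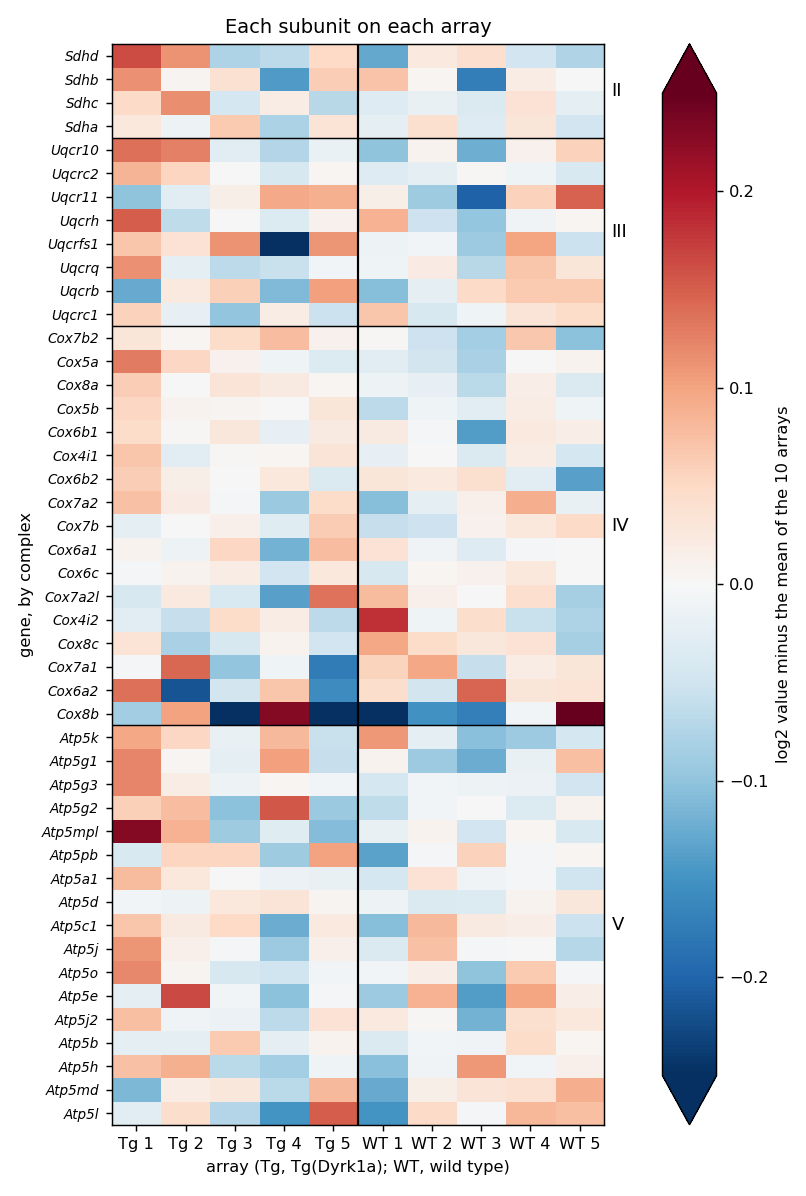
Each of the 46 subunit genes (rows, grouped by complex) on each array (columns), as the log2 value minus the mean over the 10 arrays, with colours ending at 0.25 in either direction. The column of Tg(Dyrk1a) replicate 1 is red for most genes and is the highest array for 19 of them, and Cox8b is the row with the strongest colours.

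The median over members on each array, with every gene centred on its own mean, shows the same arrays. It was 0.060, 0.014, -0.001, -0.030 and 0.008 in Tg(Dyrk1a) replicates 1 to 5 and -0.022, -0.006, -0.030, 0.019 and 0.00004 in wild-type replicates 1 to 5. The spread between mice, with an SD of 0.033 in Tg(Dyrk1a) and 0.019 in wild type, exceeded the distance of 0.018 between the group means, and the groups overlapped. Complexes II, III and V had Tg(Dyrk1a) replicate 1 as their highest array, at 0.081, 0.078 and 0.074, and so did complex IV, at 0.035. The lowest arrays differed, with Tg(Dyrk1a) replicate 4 lowest for complexes II and V and wild-type replicate 3 for complexes III and IV. The 3 arrays with the lowest median over members, wild-type replicate 3, Tg(Dyrk1a) replicate 4 and wild-type replicate 1, were also the 3 with the highest median over all rows, at 6.66, 6.65 and 6.63. The part of array level in the members' values was not tested beyond the scaling alternatives.

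**Figure D4:**
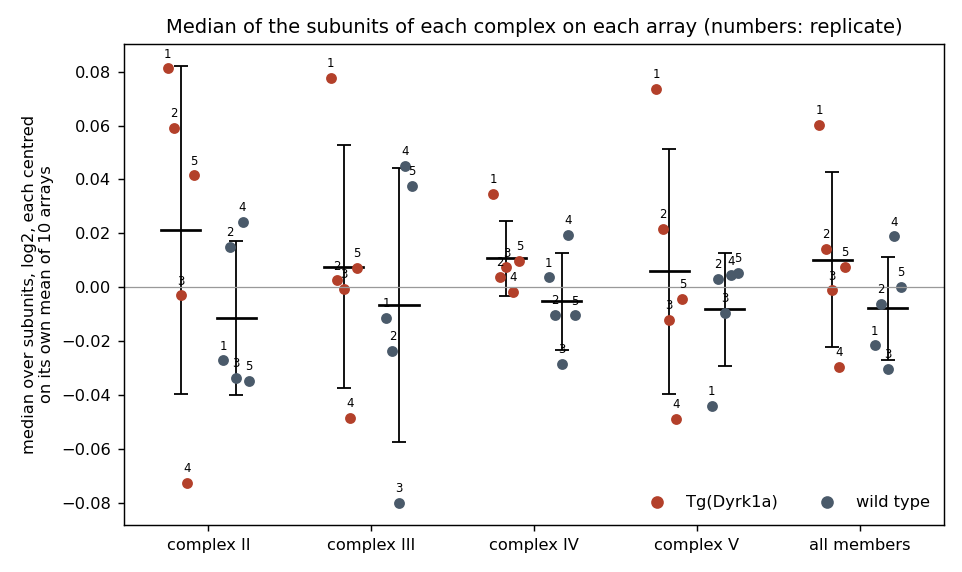
Median over the subunits of each complex, and over all 46, on each array, on the log2 scale with each gene centred on its own mean of 10 arrays. Each point is 1 mouse labelled by replicate, lines are group means and bars are SD (n = 5), and the groups overlap in every complex, with Tg(Dyrk1a) replicate 1 the highest point of each.

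The median difference of all members followed single arrays. It was 0.009 without Tg(Dyrk1a) replicate 1, 0.010 without wild-type replicate 3, 0.029 without wild-type replicate 4 and 0.034 without Tg(Dyrk1a) replicate 4. With the 3 marker scores as covariates it was -0.002, and 22 of 46 members then had the higher value in Tg(Dyrk1a). Quantile normalization gave 31 members, median centring 36, and leaving out the 3 arrays whose choroid plexus score exceeded 0.5 gave 36. The count past the limma threshold was 0 under each of these.

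**Figure D5:**
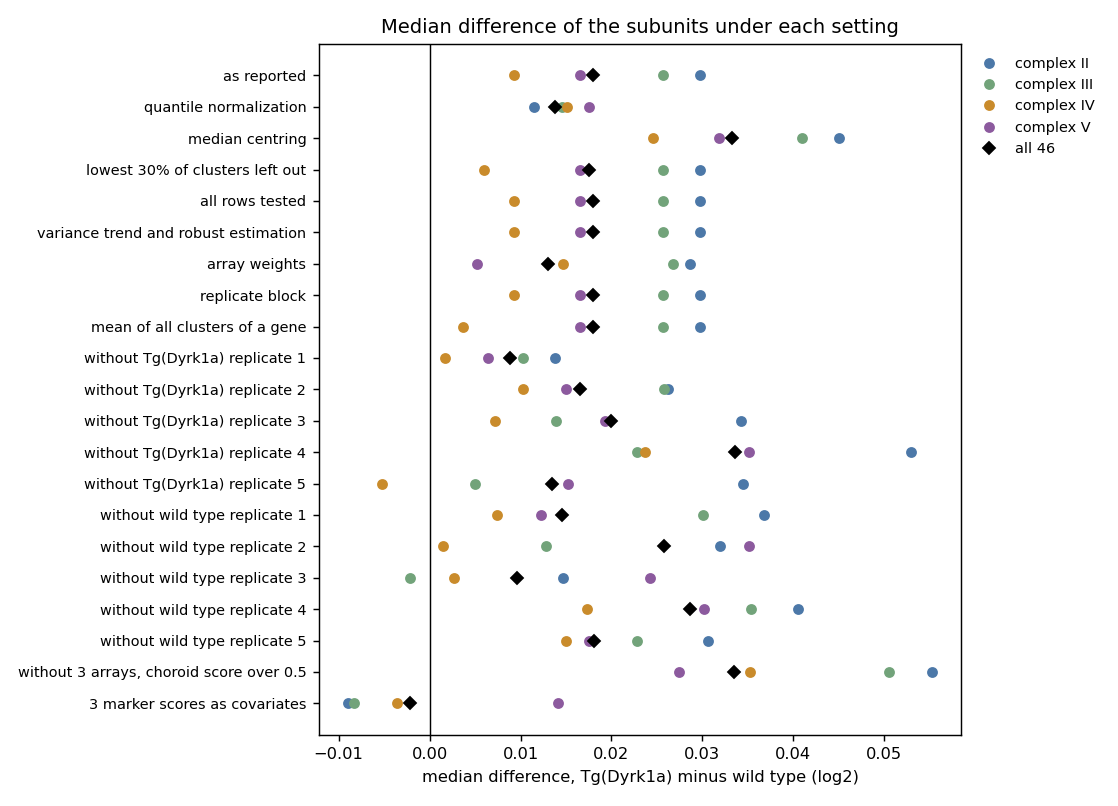
Median log2 difference between Tg(Dyrk1a) and wild type over the subunits of each complex and over all 46 (diamonds), as reported and under each alternative setting. All medians lie between -0.009 and 0.055, and the medians of complexes II, III and IV fall below 0 with the marker scores as covariates.

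Some members had further transcript clusters under the same symbol. For 12 members there were 20 of them, and they gave the same sign as the member for 9 genes and both signs for Cox6c, Cox7a2l and Cox7b. The largest gap between the clusters of 1 gene was 0.053, for Uqcr11, at 0.03 and 0.08. Whether some of them, or some of the clusters chosen for the members, read processed copies of these genes was not tested. The 3 transcript clusters that name Cox7c beside another symbol differed by -0.05, -0.04 and -0.03, with limma adjusted p of 0.957 to 0.969.

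The proteins that build and regulate the complexes were examined as lists. Of 79 symbols, some of them older names of the same gene, 58 were measured, 38 had the higher mean in Tg(Dyrk1a) (50.9% of all transcript clusters did), and the median log2 difference was 0.023. None passed an adjusted p of 0.05. At an unadjusted p under 0.05 there were 4, each with the higher mean in Tg(Dyrk1a), where 4.93% of all transcript clusters reached it, and 2 of them, Tmem70 and Cox18, had groups that did not overlap (0.807% of all transcript clusters).

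Assembly factors for complex V held 2 of the 4. Tmem70, which helps to build the c ring, was at 8.26, 8.33, 8.29, 8.27 and 8.29 in Tg(Dyrk1a) and at 8.19, 8.15, 8.15, 8.18 and 8.22 in wild type, so that every Tg(Dyrk1a) array was above every wild-type array. The difference was 0.11 ± 0.03 (1.08-fold; exact permutation p = 0.00794, the smallest this design allows; limma adjusted p = 0.947). Atpaf2, a chaperone of the alpha subunit of the head, differed by 0.08 ± 0.04. Of the 5 measured genes of this list, 3 had the higher mean in Tg(Dyrk1a).

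Cox18, an insertase that places the mitochondrially encoded COX2 subunit in the membrane, was the only one of the 20 measured assembly factors of complex IV below an unadjusted p of 0.05. Its values were 9.67, 9.71, 9.63, 9.66 and 9.66 in Tg(Dyrk1a) and 9.55, 9.55, 9.54, 9.63 and 9.59 in wild type. The difference was 0.09 ± 0.03 (exact permutation p = 0.00794; limma adjusted p = 0.947). Coa4, the next of that list by p, differed by -0.05 ± 0.03.

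For complex II, the assembly factors Sdhaf2, which helps to attach the flavin to Sdha, and Sdhaf1, which protects the iron-sulphur subunit, differed by 0.10 ± 0.04 and 0.06 ± 0.03, and all 4 measured factors had the higher mean in Tg(Dyrk1a). For complex III, Lyrm7, a chaperone of Uqcrfs1, differed by 0.06 ± 0.03 and Uqcc3 by -0.06 ± 0.05. Among cytochrome c and other subunits outside the rule, Higd2a and Higd1a both differed by 0.09, with errors of 0.04 and 0.06.

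Of the 15 regulators of mitochondrial biogenesis, 7 had the higher mean in Tg(Dyrk1a), with a median of -0.008. Ppargc1a, the coactivator that drives biogenesis, differed by -0.05, Nrf1 by -0.04 and Gabpb1, the partner of Gabpa, by 0.06 ± 0.04. Tfb1m, which modifies mitochondrial ribosomal RNA, differed by 0.13 ± 0.09. COX2 was the only symbol of a subunit encoded by mitochondrial DNA that had a transcript cluster, and it differed by -0.03 ± 0.05. Whether that cluster read mitochondrial RNA or a nuclear copy was not tested.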

How the data were processed

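RNA of 10 hippocampi was labelled as biotinylated single-strand cDNA and hybridised to Affymetrix Mouse Gene 1.0 ST arrays. The values that the authors deposited are on the log2 scale and come from RMA (robust multi-array average), a procedure of background correction, normalization across arrays and summary by transcript cluster that compresses differences of dim clusters. The submitters' processing notes name RMA, limma and mm10, and versions were not given in the sources used here. Arrays have no read depth, so their number limits the precision. Of 35556 rows, 23410 had a gene in the platform annotation, which can hold old symbols, and these were checked through gene identifiers against RefSeq GRCm38.p6.

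The main comparison of genotypes used lmFit and eBayes of limma 3.58.1 under R 4.3.3 without covariates, with Benjamini-Hochberg adjustment over the 23410 transcript clusters, 95% intervals, and for single genes an exact two-sided permutation test over the 252 assignments of arrays, whose smallest p is 0.00794. FCROS was rewritten from its description, with 25% of ranks trimmed at each end. Scripts were tested on simulated data. Members, gene lists and alternatives were chosen with earlier results of these data known. Genes were named by rule, namely in each complex the 3 members with the smallest p and the highest and lowest difference, the isoform families, the members on chromosome 16, and in each list the 2 genes with the smallest p. Others, such as Cox5b, Uqcrfs1, Atp5a1, Atp5b, Atp5h, Atp5pb, Ppargc1a and Nrf1, were named for their role or values after these had been seen. The alternatives were 2 rescalings, leaving out the lowest 30% of clusters, testing all rows, a variance trend, array weights, a replicate block, the mean of all clusters of a gene, FCROS, leaving out arrays, and marker scores as covariates. Markers also included interneurons (8 of 9 with the higher mean in Tg(Dyrk1a)), hippocampal neurons (8 of 10), oligodendrocytes (6 of 7), astrocytes (5 of 7) and microglia (3 of 6).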

Additional observations from a re-analysis of the deposited data

Results flagged for a closer look

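Single arrays stood apart from the other 4 of their group in 7 of 102 sets of 5 values (6.86%), by Dixon's test at its 95% limit, which chance alone passes in about 5% of sets. In wild type, replicate 3 was low for Atp5j2, at 10.96, and for Cox6b1, at 11.25. Wild-type replicate 5 was high for Cox8b, at 7.38, and wild-type replicate 4 was high for Sdhc, at 10.22. In Tg(Dyrk1a), replicate 4 was low for Atp5c1, at 10.97, and for Uqcrfs1, at 8.33, and replicate 1 was high for Atp5g3, at 11.51.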

How the results depend on the processing

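The count of members past the limma threshold was 0 under every alternative run, FCROS included, and the smallest adjusted p of any of the 29 members named by rule was 0.715. Of 579 values for these members under 20 alternatives, 540 kept their sign and 39, in 17 members, changed it. The median of complex IV went from 0.009 to 0.035 without the 3 arrays whose choroid plexus score exceeded 0.5, and the number of members with the higher value in Tg(Dyrk1a) went from 34 to 22 with the marker scores as covariates; the cause was not tested. Leaving out each array in turn gave 28 to 38 such members, and medians of 0.009 to 0.034 for all members, 0.014 to 0.053 for complex II, -0.002 to 0.035 for complex III, -0.005 to 0.024 for complex IV and 0.006 to 0.035 for complex V. The lowest of these came without Tg(Dyrk1a) replicate 1 for all members and complexes II and V, without wild-type replicate 3 for complex III and without Tg(Dyrk1a) replicate 5 for complex IV, and the highest without Tg(Dyrk1a) replicate 4, except for complex III, without wild-type replicate 4.

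Signs changed as follows. Quantile normalization gave Cox6a1 -0.016 and Sdha -0.0035. Array weights gave Atp5g2 -0.0069, Atp5o -0.011, Cox7a2l 0.0021 and Sdhc -0.0058, and the mean of all transcript clusters gave Cox7a2l 6.78e-05. Without the 3 choroid plexus arrays, Atp5g2 was -0.019, Atp5l 0.022, Cox6b2 -0.0085 and Sdhc -0.0099. With the marker scores as covariates, Atp5o was -0.0031, Cox6a1 -0.027, Cox6a2 0.064, Cox6b1 -0.0086, Cox7a2 -0.0081, Cox7b -0.0035, Cox7b2 -0.0032, Cox8b 0.062, Sdha -0.024, Sdhb -0.017 and Sdhc -0.0013. Over the fits without 1 array, Atp5j ranged from -0.0094 to 0.041, Atp5l from -0.062 to 0.013, Atp5o from -0.016 to 0.030, Cox4i2 from -0.058 to 0.0074, Cox6a1 from -0.016 to 0.032, Cox6b2 from -0.0038 to 0.040, Cox7a2 from -0.0071 to 0.043, Cox7a2l from -0.058 to 0.0098, Cox7b from -0.0053 to 0.022, Cox8b from -0.27 to 0.054, Sdha from -0.0014 to 0.035 and Sdhb from -0.0077 to 0.071.

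With the replicate number as a block, 0 members passed, and 34 had the higher mean, with the same median of 0.018. The values gave no clear sign that same-numbered arrays were paired. Deviations of same-numbered arrays correlated at -0.29 to 0.28, and 1 of 5 arrays correlated best with its own number. With 5 arrays a group, this cannot show whether same-numbered mice shared a litter or a batch. With 5 arrays a group and a median standard error of 0.042, smaller differences than these intervals allow were not detectable, and no background signal per transcript cluster was used here.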
